A study of Mus musculus with 8 samples.

Results

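Kinesins are motor proteins that walk along microtubules on ATP, and the genes described here are the kinesin heavy chains and kinesin light chains of the mouse. They were chosen by symbol, as every gene named Kif with a number, Kifc with a number or Klc with a number, which gave 44 genes of the 15599 listed in either of 2 deposited expression tables. The embryonic brain table held 40 of them among 14496 genes, the embryonic stem cell table held 34 among 9217 genes, and 30 were in both. By textbook role they fall into 12 spindle kinesins, 17 cargo kinesins, 4 light chains and 11 others (ciliary, signalling or microtubule-depolymerising members and those of unsettled role). The symbol pattern used no measured value. The family, and Kif5c, Kif1b and Kif3c as its examples of cargo motors, were however selected on earlier results of the brain comparison, so the brain values of kinesin genes are a description with no p-value; their calls in the fit of the whole table are listed beside the share of all genes called and support nothing.

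The study compared embryonic brain from a mouse model of neural tube defects with control brain, and mouse embryonic stem cells (mESC) without and with folic acid. The NTD group (3 libraries) came from embryos of dams kept on a low folate diet and injected in the peritoneum with methotrexate (MTX), a folate antagonist, at 1.5 mg/kg on gestational day 7.5. These embryos were small and delayed, with malformed hindbrain or spina bifida as the main phenotypes. The control group (3 libraries) was labelled with normal saline and consisted of embryos with closed neural tubes; the diet of the control dams is not given, so diet and MTX cannot be told apart. Embryos of both groups were collected between day 9.5 and day 10.5, and the labels give neither litter nor pooling, so p-values measure only the spread between these samples, which may be partly technical. The mESC groups, 1 library each, were Sv129 cells in medium without folic acid (FA0) and in the same medium with 4 mg/L folic acid (FA4).

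Spindle kinesins build and use the mitotic spindle: they push its poles apart, move chromosomes, shorten microtubule ends and, late in division, organise the midzone where the daughter cells separate. Cargo kinesins carry vesicles, mitochondria, membrane proteins and RNA along microtubules, and in neurons they supply axons and dendrites. Conventional kinesin (kinesin-1) is a pair of Kif5 heavy chains, usually with a pair of light chains that bind cargo. At the time of neural tube closure most cells of the neural tube are dividing progenitors, and the first neurons are being born.

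Brain libraries held 17335564 to 26788304 counts in NTD and 18959473 to 26238026 counts in controls. Values are CPM, the counts of a gene relative to the TMM-adjusted total of its library, and CPM per kilobase of exon where genes are compared with each other. Control library 1 correlated with controls 2 and 3 at 0.775 and 0.76 across genes, while those 2 correlated at 0.91, and the NTD libraries correlated with one another at 0.718 to 0.749. The label brain was checked against marker lists that were chosen with earlier results of these data known. Over all tested genes edgeR called 0.998% lower and 1.89% higher in NTD. DESeq2 called 3.75% lower and 5.35% higher, and limma-voom 0.895% lower and 1.33% higher. Summed neuron markers were at 855 to 968 CPM in NTD and 4310 to 6060 CPM in controls, with 10 of 12 genes called lower in NTD. Summed neural progenitor markers were at 1000 to 1590 CPM in NTD and 2120 to 2790 CPM in controls (2 of 10, Fabp7 and Hes5, called lower), and proliferation markers at 3490 to 3650 CPM in NTD and 2920 to 3570 CPM in controls (0 of 10 called with edgeR; 2 were higher at an unadjusted p under 0.05, and DESeq2 and limma-voom called 0). Trophoblast markers summed to 1130 to 1730 CPM in NTD and 0 to 1.62 CPM in controls (7 of 9 tested called higher; Prl8a9, Tpbpa and Prl3d3 were at 0 counts in every control library), and yolk sac endoderm markers to 12200 to 14700 CPM in NTD and 203 to 570 CPM in controls (5 of 9 called higher). Among the yolk sac endoderm markers Ttr was at 1500, 1380 and 2500 CPM in NTD and 192, 285 and 347 CPM in controls. DESeq2 called 10 neuron and 4 neural progenitor markers lower, and 9 trophoblast and 8 yolk sac endoderm markers higher. With limma-voom these counts were 10, 2, 4 and 5. The NTD libraries thus held RNA of trophoblast and yolk sac endoderm marker genes at levels far above those of controls. Brain is the label of these samples, and the source of that RNA was not tested.

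Of the 15 tested cargo kinesins, 12 had a negative log2 fold change of NTD over control and 3 were called lower (background 0.998% of all tested genes). All 3 NTD values lay below all 3 control values for 7 of them (background 12.1%), and above for 1 (background 12.4%). Of the 11 spindle kinesins, 0 were called (background 0.998% lower and 1.89% higher). Their log2 fold changes ran from -0.70 to 1.00 in both directions. The 16 cargo genes together held 527, 519 and 650 CPM in NTD libraries 1 to 3, against 1310, 1180 and 1360 CPM in control libraries 1 to 3. The 11 spindle genes together held 1600, 1370 and 1450 CPM in NTD, against 1480, 1180 and 1140 CPM in controls. Of these spindle sums, Kif20a alone held 585, 564 and 527 CPM in NTD, against 370, 399 and 303 CPM in controls. The ratio of summed spindle to summed cargo CPM was 3.04, 2.65 and 2.23 in NTD and 1.13, 1.00 and 0.839 in controls, with no overlap. Kif5c, Kif1b and Kif3c, which were selected on this comparison, supply much of the cargo sum. Without them the cargo sum was 335, 316 and 398 CPM in NTD, against 593, 543 and 565 CPM in controls. The spindle to cargo ratio was then 4.77, 4.35 and 3.65 in NTD and 2.49, 2.17 and 2.02 in controls. The remaining genes belong to a family and classes that were also chosen with earlier results of this comparison known. Leaving out the named genes does not remove that selection, so these values are a description too. The median log2 fold change of NTD over control was -1.21 over the 15 tested cargo kinesins, 0.05 over the 11 spindle kinesins and -0.02 over all 11626 genes tested. Over the 12 tested cargo kinesins other than Kif5c, Kif1b and Kif3c it was -0.80, with 9 negative values and 0 calls. Among these 12, all NTD values lay below all control values for 4 genes (background 12.1%) and above for 1 (background 12.4%). Neuron markers were lower in the same NTD libraries, and trophoblast and yolk sac endoderm markers were higher, as given above. The NTD embryos were also delayed. All of these go with the group, and their part in the cargo and spindle values was not tested. In whole tissue, fewer cells of a type and less RNA per cell cannot be told apart.

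**Figure D1:**
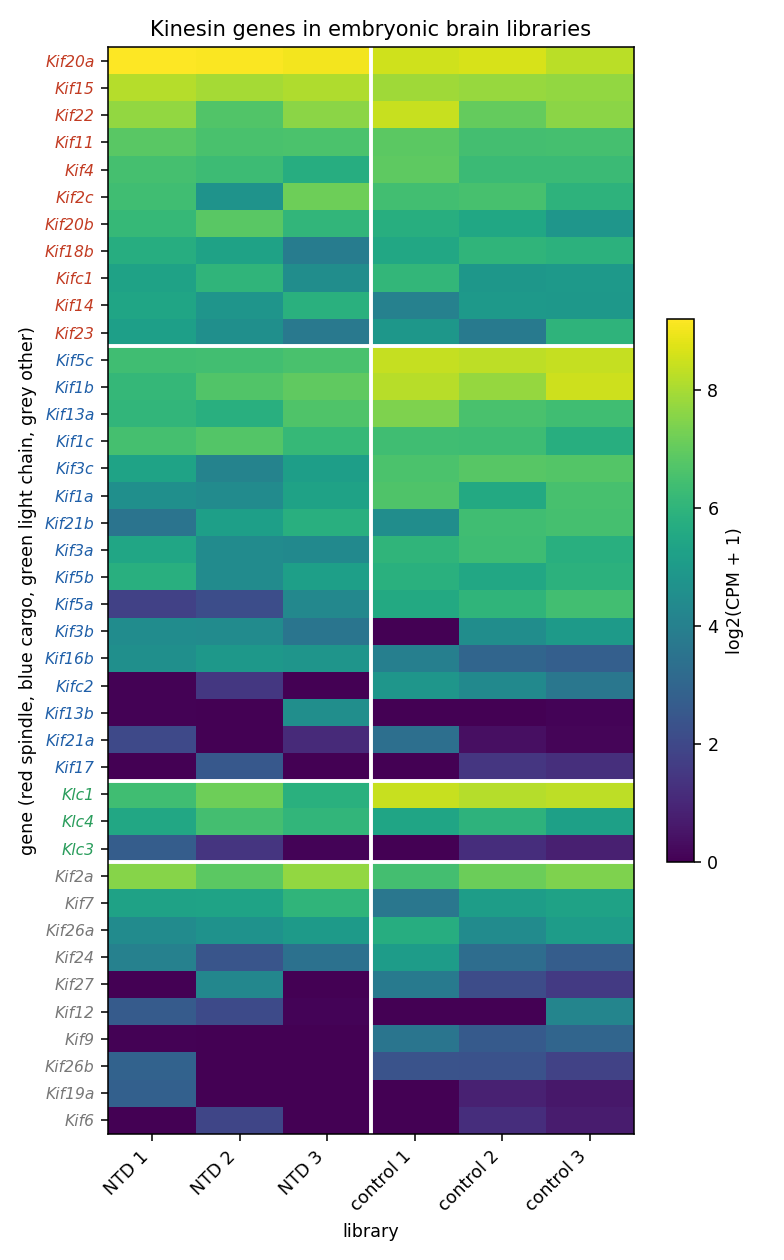
Level of all 40 kinesin genes of the brain table in each of the 6 libraries, as log2(CPM + 1) by colour, with NTD libraries on the left and genes grouped by class. Klc1 and 7 of the 16 cargo genes are darker in all 3 NTD columns than in any control column.

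Of the 40 kinesin genes, 39 passed the filter on low counts. With edgeR's quasi-likelihood test over the whole table, at an adjusted p under 0.05, 4 of the 39 were called lower in NTD (Kif5c, Kif3c, Kif1b and the light chain Klc1), against a background of 0.998% of all tested genes. None was called higher, against a background of 1.89%. At an unadjusted p under 0.05, 9 were lower (background 6.73%) and 2 higher (background 8.31%). DESeq2 called 8 lower (background 3.75%) and 1, Kif20a, higher (background 5.35%), and limma-voom called 4 lower (background 0.895%) and 0 higher (background 1.33%). All 3 NTD values lay below all 3 control values for 9 of the 39 (background 12.1%), and above them for 4 (background 12.4%). Since 3 of the 4 called genes were named when the family was put forward, these counts are not read against the background.

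**Figure D2:**
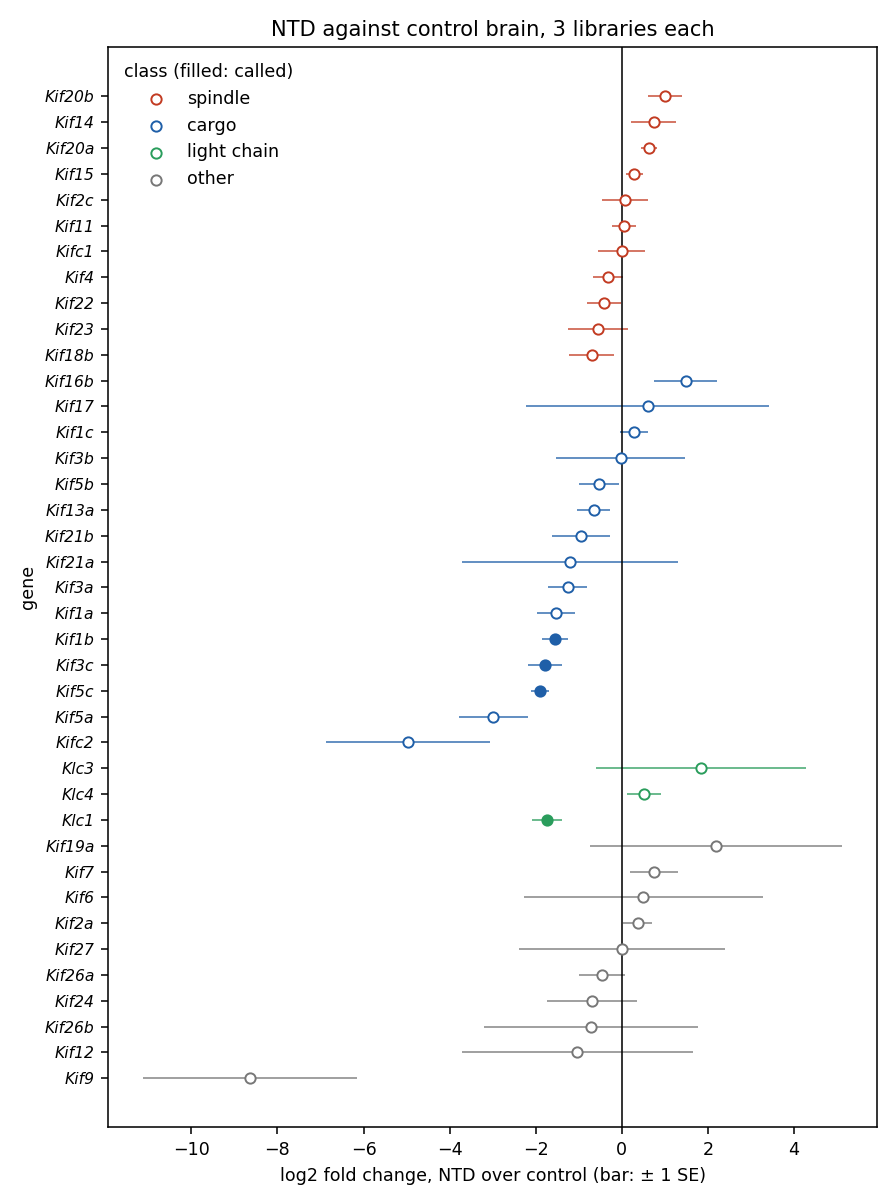
Fitted log2 fold change of NTD over control with its standard error for the 39 tested kinesin genes, by class. Filled points are the 4 called genes; 12 of the 15 cargo genes lie left of 0, spindle genes lie between -0.70 and 1.00, and the value of Kif9, at the far left, rests on 1 count in NTD and is no measure of size.

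Kinesin-1 heavy chains are Kif5a, Kif5b and Kif5c. Kif5c, a heavy chain enriched in neurons (chr2:49619298-49774778, plus strand, GRCm38), was at 82.6, 85.0 and 93.3 CPM in NTD and at 331, 307 and 333 CPM in controls. The groups lay far apart with a narrow spread in each, at 87.0 ± 5.6 CPM in NTD and 324 ± 14.6 CPM in controls (SD, n = 3 each), a log2 fold change of -1.90 ± 0.21 (SE). Kif5a, the heavy chain most restricted to neurons, was at 2.46, 3.49 and 18.8 CPM in NTD and at 46.9, 64.2 and 84.8 CPM in controls. The groups did not overlap, but NTD 3 stood well above the other NTD libraries. The fold change of Kif5a was -2.99 ± 0.80 and not called. It was called without NTD 3, at -4.55, and not when any other single library was left out. DESeq2 called Kif5a lower and limma-voom did not. Kif5b, the heavy chain of most tissues, was at 55.4, 20.4 and 35.4 CPM in NTD and 56.2, 44.2 and 59.7 CPM in controls, and the groups overlapped.

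The makeup of the Kif5 set differed between the groups as well as its amount. Per kilobase, Kif5b made up 36.7, 17.1 and 21.9% of the Kif5 total in NTD and 11.7, 9.60 and 11.3% in controls, so every NTD share was above every control share. Kif5a made up 1.86, 3.34 and 13.3% in NTD and 11.2, 15.9 and 18.3% in controls, where NTD 3 overlapped the controls. Kif5c remained the main heavy chain in all 6 libraries, at 61.4, 79.6 and 64.8% in NTD and 77.1, 74.5 and 70.5% in controls. Shares of one total move against each other, so these are not independent differences.

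Among the kinesin light chains, which link Kif5 heavy chains to cargo, Klc1 and Klc4 differed in direction. Klc1 (chr12:111758849-111807844, plus strand), the light chain abundant in neurons, was at 82.6, 144 and 56.2 CPM in NTD and at 346, 288 and 310 CPM in controls, a log2 fold change of -1.74 ± 0.34 with no overlap, called. Its call was lost without NTD 1 or 3 or any 1 control library, at -1.80 to -1.55, and without NTD 2 it was -2.26 and called. Klc4 was at 44.2, 87.2 and 65.4 CPM in NTD and 40.9, 60.8 and 36.5 CPM in controls, with overlap (0.51 ± 0.40, not called). Klc3 was low and uneven, with 144, 43 and 1 counts in NTD. Per kilobase Klc1 was the second most abundant of the 40 genes in controls, at a mean of 77.3, and the sixth in NTD, at 23.2.

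Kinesin-2 is a trimer of Kif3a, a partner heavy chain (Kif3b or Kif3c) and the adaptor Kifap3; with Kif3b it builds cilia, and the Kif3c form is found mainly in neurons. Kif3c (chr12:3365132-3406494, plus strand) was at 39.5, 16.5 and 34.9 CPM in NTD and at 96.5, 112 and 105 CPM in controls. Every NTD value was below every control value, at -1.79 ± 0.40, called. The call sat near the threshold and was lost when any 1 of the 6 libraries was left out, while the log2 fold change stayed between -2.10 and -1.57. An antisense gene, 1110002L01Rik, overlaps 35.3% of the exon length of Kif3c and averaged 1.78 CPM in NTD and 0 CPM in controls; the strand setting of the counts is not given, so reads of the pair may not be separated. Kif3a was at 42.6, 20.9 and 19.8 CPM in NTD and 64.2, 80.9 and 54.6 CPM in controls, with no overlap and no call (-1.26 ± 0.45). Kif3b was at 21.1, 20.7 and 10.8 CPM in NTD and 0, 21.8 and 31.6 CPM in controls. Control 1 held 0 counts of Kif3b, beside 597 and 606 in controls 2 and 3, so its fold change (-0.02 ± 1.50) says little. Per kilobase, Kif3c made up 25.4, 19 and 38.8% of the Kif3 total in NTD and 42.1, 36.3 and 40.6% in controls, with overlap. The shares of Kif3a and Kif3b overlapped too. The 0 counts of Kif3b in control 1 enter all shares of that library. Kifap3 itself was at 54.1, 58.6 and 27 CPM in NTD and 92.1, 123 and 90.1 CPM in controls (-1.13 ± 0.38 log2 fold change, edgeR adjusted p = 0.171).

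The kinesin-3 motors carry synaptic vesicle precursors and other membrane cargo. Kif1b (chr4:149176319-149307693, minus strand), known for mitochondria and synaptic vesicle precursors in nerve cells, was at 69.2, 102 and 123 CPM in NTD and at 292, 214 and 357 CPM in controls. The groups did not overlap, and the fold change was -1.55 ± 0.30, called. That call was lost without NTD 1, 2 or 3 and without control 1 or 3, with log2 fold changes of -1.85 to -1.37, and held without control 2 at -1.73. Kif1a, the main axonal carrier of synaptic vesicle precursors, was at 23.2, 20.8 and 38.8 CPM in NTD and 100, 47.4 and 90.4 CPM in controls; it did not overlap and was not called (-1.52 ± 0.44). Kif1c, a broadly expressed relative, was at 87.7, 105 and 70.5 CPM in NTD and 82.4, 80.2 and 53.2 CPM in controls, with overlap. Within these 3 genes, per kilobase, Kif1c made up 65.3, 64.3 and 46.5% in NTD and 29.3, 39 and 19.6% in controls. Kif1b made up 21.2, 25.8 and 33.6% in NTD and 43.0, 42.9 and 54.4% in controls. Neither of these shares overlapped. Kif1a made up 13.4, 9.95 and 19.9% in NTD and 27.7, 18 and 26% in controls, with overlap.

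The other cargo kinesins did not move as 1 group. Kifc2, a C-terminal motor described in neurons, had 48 counts over the 3 NTD libraries, nearly all in NTD 2, and 1404 over the controls. This was 0.0391, 1.82 and 0 CPM in NTD and 27.8, 19.6 and 11.6 CPM in controls, with no overlap and no call (-4.96 ± 1.91). Kif16b, a motor of early endosomes, ran the other way, at 22.8, 28.7 and 26.6 CPM in NTD and 14.8, 6.98 and 5.95 CPM in controls, not called (1.49 ± 0.73). Kif13a, a carrier of recycling endosomes, was at 66.1, 54.4 and 99.7 CPM in NTD and 169, 93.5 and 83.0 CPM in controls, and overlapped, as did Kif21b, a motor found in dendrites (-0.94 ± 0.67). Kif21a, Kif17 and Kif13b were present in some libraries only. Kif13b was not tested: 372 of its 373 NTD counts came from NTD 3, and the controls held 1 count.

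**Figure D3:**
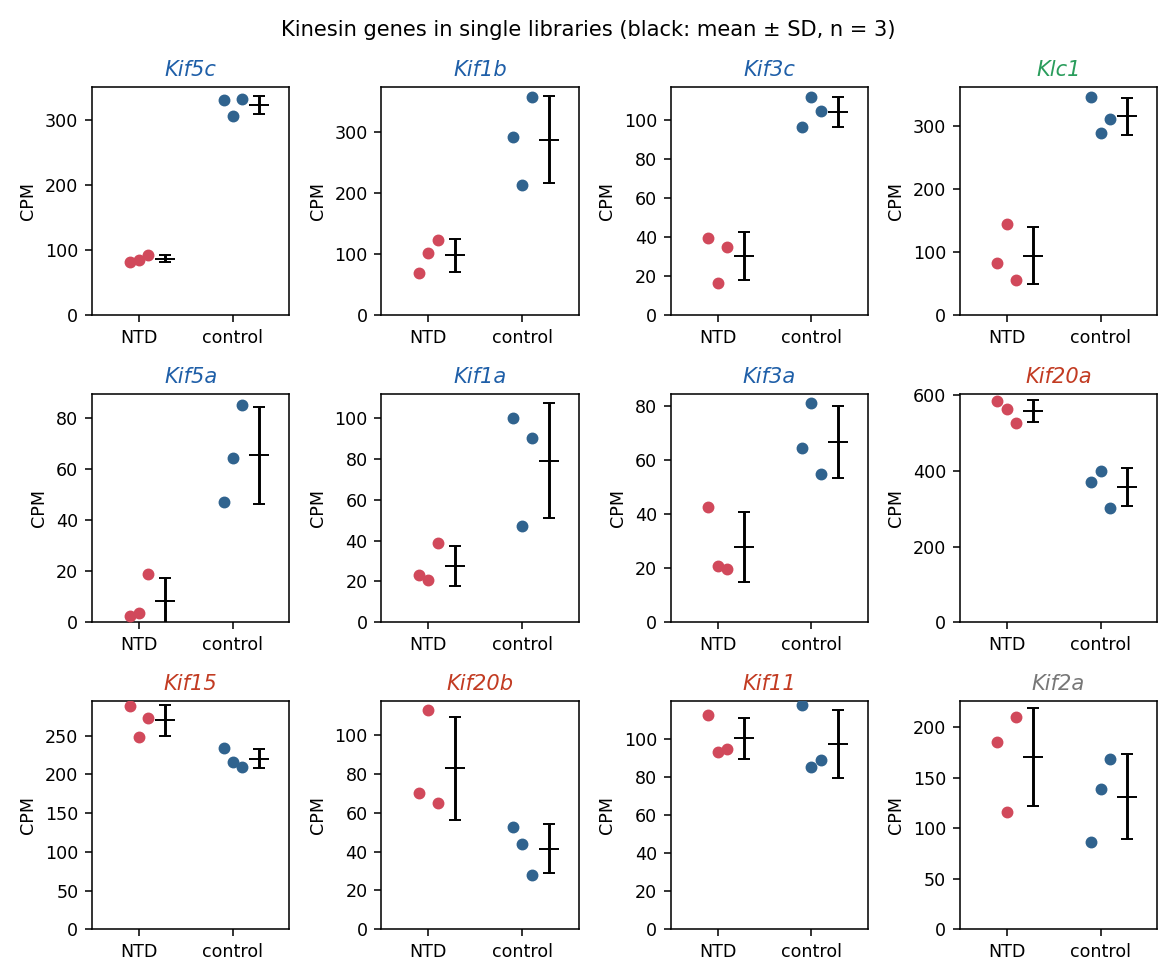
CPM of 12 kinesin genes in each NTD library (left in each panel) and each control library, with mean and SD in black. Kif5c, Kif1b, Kif3c, Klc1, Kif5a, Kif1a and Kif3a are lower in all 3 NTD libraries; Kif20a, Kif15 and Kif20b are higher in all 3; Kif11 and Kif2a overlap.

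With edgeR, 0 of the 11 spindle kinesins were called (background 0.998% lower and 1.89% higher). At shares this small, 0 calls among 11 genes do not show that the class was unchanged. At an unadjusted p under 0.05, 2 were higher (Kif20a and Kif20b, background 8.31%). DESeq2 called Kif20a higher (background 5.35%), and limma-voom called 0 (background 0.895% lower and 1.33% higher). The log2 fold changes ran from -0.70 (Kif18b) to 1.00 (Kif20b), 6 of them positive and 5 negative. For 3 genes all NTD values were above all control values (background 12.4%), and for 0 genes below (background 12.1%). Without control 1 the median of the class was 0.21 in place of 0.05.

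The 3 spindle genes with separated groups were Kif20a, Kif15 and Kif20b. Kif20a, which brings the chromosomal passenger complex to the spindle midzone, was at 585, 564 and 527 CPM in NTD and 370, 399 and 303 CPM in controls (0.64 ± 0.19). It was the most abundant of the 40 genes per kilobase in both groups, at a mean of 129 in NTD and 82.4 in controls. The gene Cdc23 on the opposite strand overlaps 29.3% of the exon length of Kif20a and averaged 181 CPM in NTD and 223 CPM in controls, so some reads may be shared. Kif15, which helps Kif11 keep the poles apart, was at 288, 248 and 273 CPM in NTD and 234, 216 and 210 CPM in controls (0.29 ± 0.20). Kif20b, a midbody kinesin needed for normal growth of the mouse cerebral cortex, was at 70.1, 113 and 65.2 CPM in NTD and 52.7, 43.8 and 27.8 CPM in controls (1.00 ± 0.39).

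For the other 8 spindle genes the groups overlapped. Kif11, the motor that pushes the spindle poles apart, was at 113, 93.2 and 95 CPM in NTD and 118, 85.5 and 89.1 CPM in controls. Kif22, a chromosome-arm motor, was at 205, 102 and 194 CPM in NTD and 344, 130 and 194 CPM in controls, with control 1 the highest. Kif14, which acts in cytokinesis, was at 41.6, 26.8 and 55.7 CPM in NTD and 15.5, 30 and 28.6 CPM in controls (0.74 ± 0.52). Kif18b, which shortens astral microtubules, was at 52.2, 38.0 and 13.7 CPM in NTD and 44.3, 64.4 and 59.8 CPM in controls (-0.70 ± 0.52), with NTD 3 the lowest. Kif2c, the depolymerase of centromeres, ranged from 25.2 to 142 CPM in NTD and from 61.1 to 90.5 CPM in controls. Kif23, the motor of centralspindlin, ranged from 12.2 to 35.5 CPM in NTD and from 12.7 to 62.8 CPM in controls, and Kif4, a chromosome and midzone motor, from 52.1 to 87.8 CPM in NTD and from 76.0 to 119 CPM in controls. Kifc1, which focuses spindle poles, ranged from 21.6 to 63.6 CPM in NTD and from 28.1 to 66.7 CPM in controls; mouse has a close copy, Kifc5b, and reads of the 2 may not be separated.

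The promoters of the spindle and cargo genes were compared because this uses the sequence alone and none of the libraries. The RefSeq windows of GRCm38.p6, from 250 bases before to 50 bases after each gene start, were matched by symbol for 34 of the 44 genes, with 38 windows, since 4 genes have a pair of starts. No window was matched for Kif13b, Kif19a, Kif20a, Kif21b, Kif28, Kif5a, Kif5b, Kifc2, Kifc3 and Klc2. The cell cycle genes homology region (CHR), known from promoters of genes expressed late in the cell cycle, was searched as TTTGAA and its reverse TTCAAA, beside the CCAAT box (CCAAT or ATTGG) that often accompanies it. The sequences are 150 bases, from 110 before to 40 after the start, of 6 spindle genes, 5′ to 3′ on the gene's own strand; capitals mark CHR and CCAAT matches and, in Kif15, an E2F-type match that runs into the CHR.
Kif11 (chr19:37376272-37376421, plus strand): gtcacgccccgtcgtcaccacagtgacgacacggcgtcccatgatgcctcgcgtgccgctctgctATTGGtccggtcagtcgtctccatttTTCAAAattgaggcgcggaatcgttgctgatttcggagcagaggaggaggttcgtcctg
Kif22 (chr7:127042381-127042530, minus strand): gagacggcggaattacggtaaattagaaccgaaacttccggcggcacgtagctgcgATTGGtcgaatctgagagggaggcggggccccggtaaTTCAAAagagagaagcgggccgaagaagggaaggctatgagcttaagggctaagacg
Kif20b (chr19:34922248-34922397, plus strand): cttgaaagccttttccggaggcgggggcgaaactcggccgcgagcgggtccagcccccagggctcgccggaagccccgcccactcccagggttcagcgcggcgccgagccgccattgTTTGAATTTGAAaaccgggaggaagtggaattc
Kif15 (chr9:122950971-122951120, plus strand): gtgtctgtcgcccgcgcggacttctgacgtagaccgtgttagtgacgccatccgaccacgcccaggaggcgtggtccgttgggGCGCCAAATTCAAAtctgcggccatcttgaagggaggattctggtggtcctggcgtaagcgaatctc
Kif23 (chr9:61946760-61946909, minus strand): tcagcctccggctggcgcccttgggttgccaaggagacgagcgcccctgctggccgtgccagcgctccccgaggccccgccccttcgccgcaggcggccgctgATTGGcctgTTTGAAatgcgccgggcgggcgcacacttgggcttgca
Kif4 (chrX:100625955-100626104, plus strand): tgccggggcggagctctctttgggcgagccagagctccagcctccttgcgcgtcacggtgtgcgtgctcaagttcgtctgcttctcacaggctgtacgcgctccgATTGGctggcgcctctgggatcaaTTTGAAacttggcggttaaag
The same 150 bases follow for the 4 genes called lower in NTD; for Kif1b the start that lies farther upstream is shown. The Kif5c, Kif3c and Klc1 sequences hold no capitals, and the Kif1b sequence holds 1 CCAAT box on the opposite strand.
Kif5c (chr2:49619176-49619325, plus strand): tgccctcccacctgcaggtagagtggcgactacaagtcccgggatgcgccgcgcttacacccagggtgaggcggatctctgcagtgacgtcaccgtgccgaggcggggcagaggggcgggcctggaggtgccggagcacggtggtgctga
Kif1b (chr4:149307694-149307843, minus strand): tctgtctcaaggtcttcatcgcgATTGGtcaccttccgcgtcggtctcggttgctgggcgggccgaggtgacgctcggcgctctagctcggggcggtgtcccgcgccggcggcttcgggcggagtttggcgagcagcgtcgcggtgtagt
Kif3c (chr12:3365022-3365171, plus strand): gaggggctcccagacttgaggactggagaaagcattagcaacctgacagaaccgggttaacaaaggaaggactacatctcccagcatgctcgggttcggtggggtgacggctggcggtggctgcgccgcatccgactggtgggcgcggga
Klc1 (chr12:111758758-111758907, plus strand): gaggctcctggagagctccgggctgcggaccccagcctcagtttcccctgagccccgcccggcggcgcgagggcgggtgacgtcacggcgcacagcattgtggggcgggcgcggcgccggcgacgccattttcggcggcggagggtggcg

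A CHR was present in 10 of 11 spindle windows (90.9%), and in all of these genes but Kif18a, against 1 of 13 cargo windows (7.69%, the downstream start of Kif1a), 0 of 3 light chain windows and 2 of 11 windows of the other kinesins. It was present in 17.9% of all 32851 windows and in 11.8% of the 11143 windows of genes tested in brain. Like that of Kif1a, the Kif14 and Kif2c windows lie at starts inside the annotated gene, with CHR matches at -228 and -103 bases from the start. Within 50 bases of the start, a CHR began in 8 of 11 spindle windows (72.7%) and 1 of 13 cargo windows, against 4.94% of all windows. In Kif11, Kif15 and Kif22 it began 19, 19 and 17 bases before the start, and in Kif23, Kif4 and Kif20b after it, with Kif20b carrying a tandem pair. A CCAAT box accompanied the CHR in 7 of 11 spindle windows (63.6%), 0 of 13 cargo windows and 6.95% of all windows. The CCAAT box alone was less selective, in 7 of 11 spindle windows and 4 of 13 cargo windows against 37.4% of all windows. Pairs of CCAAT boxes were in 4 spindle and 2 cargo windows; the 2 cargo windows are the overlapping starts of Kif1b and hold the same boxes. An E2F-type match (TTTCCCGC, TTTCGCGC, TTTGCCGC or TTTGGCGC on either strand) was in 2 spindle windows (Kif15 and Kif18a), 0 cargo windows and 2.26% of all windows. No matches of different motifs overlapped in kinesin windows. Cargo windows held more G and C (66.9%) than spindle windows (58.4%) and windows of genes tested in brain (60.9%); the part of base composition in the CHR shares was not tested. A match is a run of letters and not a shown binding site.

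**Figure D4:**
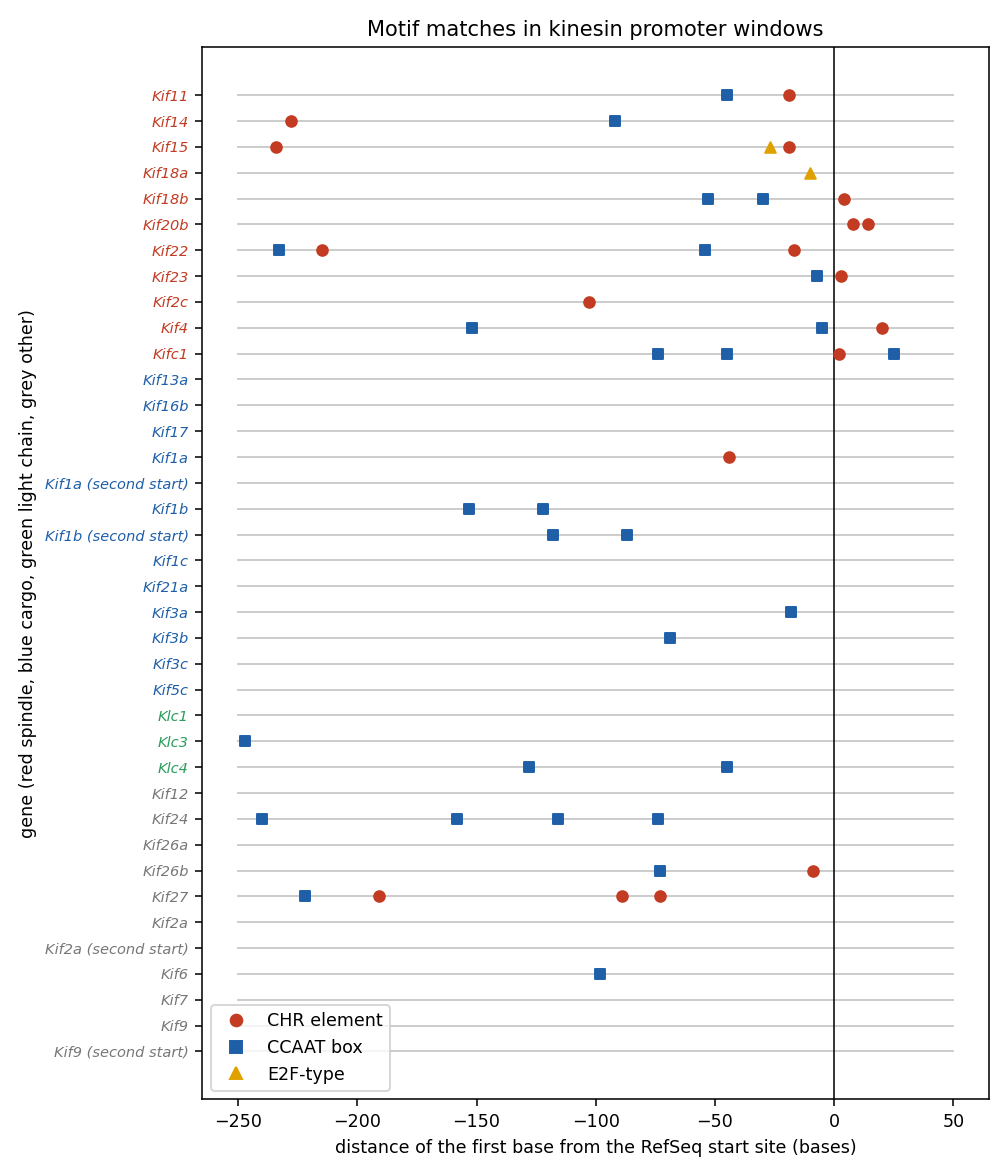
Position of each CHR, CCAAT box and E2F-type match relative to the RefSeq start in the 38 promoter windows of 34 kinesin genes, by class. CHR matches cluster near the start in the spindle genes at the top and are nearly missing from the cargo genes below them.

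The 10 other kinesins of the brain table held 0 edgeR calls (background 0.998% lower and 1.89% higher). Of these, 1, Kif9, was lower at an unadjusted p under 0.05 (background 6.73%). DESeq2 called Kif9 lower (background 3.75%) while limma-voom called 0. Kif9, a kinesin of motile cilia and sperm tails, had 1 count over the NTD libraries and 527 over the controls, at 0.0391, 0 and 0 CPM in NTD and 11.0, 5.11 and 6.94 CPM in controls. The NTD to control ratio was 0.00195, with an exact binomial 95% interval of 4.9e-05 to 0.0109 that covers counting error only. Kif2a, a microtubule depolymerase that also trims axon branches, was at 185, 116 and 210 CPM in NTD and 86.0, 139 and 169 CPM in controls, with overlap. Kif7, which acts in Hedgehog signalling at the cilium tip, was at 38.3, 39.2 and 64.1 CPM in NTD and 11.6, 34.0 and 38.5 CPM in controls (0.75 ± 0.55), with a narrow overlap. Kif26a, an atypical kinesin without motor activity, was at 20.5, 24.7 and 31.6 CPM in NTD and 51.4, 20.7 and 33.3 CPM in controls. Kif12 was at 5.23, 3.18 and 0.0601 CPM in NTD and 0, 0 and 17.3 CPM in controls, and Kif19a, which shortens cilia, at 6.09, 0 and 0 CPM in NTD and 0, 0.804 and 0.522 CPM in controls. The groups also overlapped for Kif24, Kif26b, Kif27 and Kif6. Across the family, 9 genes had at least 100 counts in at least 1 library and 3 or fewer in another of the same group. They were Kif19a, Kif21a, Kif26b, Kif3b, Kif12, Kif17, Klc3, Kif13b and Kif27. The group means concerned rest on only some of the libraries, and Kif13b was not tested.

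Partners of the motors were followed in lists chosen with earlier results known. Among 13 spindle partners, such as the passenger proteins Aurkb and Cdca8, edgeR called 0 (background 0.998% lower and 1.89% higher). At an unadjusted p under 0.05, 0 passed (background 6.73% lower and 8.31% higher), and DESeq2 and limma-voom called 0. The median log2 fold change was -0.05. The 3 with the smallest p were Aurkb (110 ± 30.4 CPM in NTD and 75.4 ± 19.6 CPM in controls, edgeR adjusted p = 0.528), Plk1 (85.6 ± 25.4 CPM in NTD and 124 ± 59.5 CPM in controls, adjusted p = 0.634) and Anln (8.72 ± 1.59 CPM in NTD and 2.14 ± 1.97 CPM in controls, SD, n = 3 each, adjusted p = 0.754). Among 16 tested cargo adaptors the median was -0.58 and edgeR called 0 (background 0.998% lower and 1.89% higher). At an unadjusted p under 0.05, 4 were lower (background 6.73%). DESeq2 called Fez1 and Mapk8ip2 lower (background 3.75%), and limma-voom called 0 (background 0.895%). Mapk8ip2, a scaffold that binds kinesin light chains, was at 6.56, 12.6 and 5.95 CPM in NTD and 61.7, 36.8 and 29.4 CPM in controls (-2.34 ± 0.62, edgeR adjusted p = 0.0911). Fez1, a kinesin-1 adaptor of axons, was at 124, 111 and 71.1 CPM in NTD and 204, 228 and 171 CPM in controls (-0.97 ± 0.28, edgeR adjusted p = 0.122). Both genes had separated groups without a call (background of NTD below control 12.1%).

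Cytoplasmic dynein with dynactin runs the opposite way along microtubules. Of its 20 tested genes edgeR called 0 (background 0.998% lower and 1.89% higher), with a median of -0.26. At an unadjusted p under 0.05, 3 were lower (background 6.73%) and 1 higher (background 8.31%). DESeq2 called Dync1i1 lower (background 3.75%) and limma-voom called 0. Dync1i1, the neuronal intermediate chain of dynein, had 0 counts in every NTD library and 11.0, 12.0 and 5.95 CPM in controls. Set against a floor of 3 counts per NTD library, it was at least 69.8-fold lower in NTD (edgeR adjusted p = 0.0919). Pafah1b1 and Dync1li1 of the same list, which most cells use, were listed at 0 or a few counts in all 6 libraries (0 to 0.0601 CPM of Pafah1b1 and 0 CPM of Dync1li1 in NTD, 0 CPM of Pafah1b1 and 0 to 0.172 CPM of Dync1li1 in controls) and were not tested, so a 0 in this table may not mean that a gene is absent. Dync1i2, the broadly expressed intermediate chain, was at 265, 356 and 338 CPM in NTD and 431, 517 and 526 CPM in controls (-0.62 ± 0.21, edgeR adjusted p = 0.171). Dctn3, a dynactin subunit, was at 26.6, 47.0 and 61.3 CPM in NTD and 99.3, 73.3 and 94.0 CPM in controls (-0.98 ± 0.39, edgeR adjusted p = 0.251). The list median was the same with Dync1i1 at its bound.

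In mESC, kinesin genes were close in FA0 and FA4. There was 1 library per group, so no test was possible; levels are the authors' FPKM, ratios are on the log2(FPKM + 1) scale, and intervals of count ratios (exact binomial, 95%) cover counting error only. The listed genes held 5247130 estimated counts in FA0 and 3901966 in FA4, and count ratios were divided by a depth ratio of 1.334. Stem cell markers were present in both libraries. Pou5f1 (405 FPKM in FA0 and 456 FPKM in FA4) and Tdgf1 (67.29 in FA0 and 88.45 in FA4) were lower in FA0. Nanog (208.4 in FA0 and 156.4 in FA4) and Zfp42 (434.3 in FA0 and 305 in FA4) were higher in FA0. So were Klf4 (21.66 in FA0 and 15.05 in FA4), Esrrb (51.86 and 47.11) and Sox2 (62.08 and 54.27). The median log2 ratio of FA0 over FA4 for these 7 markers was 0.19. Of the 34 kinesin genes, 27 had a mean of at least 5 FPKM, and 1 of these, Kif21b, was past 1.5-fold, against a background of 3.26% of genes higher and 3.25% lower. Kif21b was at 7.01 FPKM in FA0 and 4.12 FPKM in FA4, with 446 estimated counts in FA0 and 206 in FA4 and a count ratio of 1.62 (1.37 to 1.92). The median log2 ratio of FA0 over FA4 was -0.01 over 11 spindle genes, 0.15 over 10 cargo genes, 0.32 over 3 light chains, 0.35 over 3 others and 0.00 over all 6771 genes kept.

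Kif20a was the most abundant of the 34 kinesin genes listed for mESC too, at 84.5 FPKM in FA0 and 79.2 FPKM in FA4 (count ratio 1.14, 1.06 to 1.22). Kif22 was at 70.1 FPKM in FA0 and 65.4 FPKM in FA4 (1.07, 0.975 to 1.18), and Kif11 at 61.2 FPKM in FA0 and 63.3 FPKM in FA4 (0.966, 0.906 to 1.03). Kif2c was at 49.3 FPKM in FA0 and 40.4 FPKM in FA4 (1.21, 1.10 to 1.34), and Kif15 at 26.9 FPKM in FA0 and 29.7 FPKM in FA4 (0.792, 0.707 to 0.888). Kif14, Kif18b, Kif20b, Kif4 and Kif18a, the last of these measured in mESC only, lay between 11.5 and 25.7 FPKM in both libraries. The spindle gene farthest from 0 was Kif23, at 23.5 FPKM in FA0 and 34.2 FPKM in FA4, a log2 ratio of -0.52; its count ratio was closer to 1, at 0.860 (0.744 to 0.995). Kif5b led the cargo genes, at 35.5 FPKM in FA0 and 41.5 FPKM in FA4 (0.934, 0.860 to 1.01), followed by Kif13a at 22.9 FPKM in FA0 and 20.4 FPKM in FA4 (1.09, 0.963 to 1.23) and Kif1b at 14.3 FPKM in FA0 and 14.4 FPKM in FA4 (0.945, 0.838 to 1.07). Kif5c was at 11.4 FPKM in FA0 and 9.04 FPKM in FA4 (1.03, 0.891 to 1.18), and Kif3c, under the 5 FPKM minimum, at 4.63 FPKM in FA0 and 4.03 FPKM in FA4 (1.23, 0.949 to 1.59). The count ratio of each of the 3 cargo genes named above for brain (Kif5c, Kif1b and Kif3c) was within counting error of 1.

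Among the mESC light chains Klc1 was at 12.4 FPKM in FA0 and 11.3 FPKM in FA4 (count ratio 1.11, 0.919 to 1.34), Klc4 at 11.1 FPKM in FA0 and 8.75 FPKM in FA4 (1.28, 1.00 to 1.63) and Klc3 at 6.23 FPKM in FA0 and 4.68 FPKM in FA4 (1.34, 0.926 to 1.96). Klc2, another light chain, was at 2.92 FPKM in FA0 and 1.00 FPKM in FA4, below the minimum, with 45 estimated counts in FA0 and 8 in FA4 and a count ratio of 4.22 (1.97 to 10.4). Kif2a was at 25.2 FPKM in FA0 and 22.7 FPKM in FA4 (1.05, 0.926 to 1.18), Kif24, which acts at centrioles, at 15.0 FPKM in FA0 and 11.5 FPKM in FA4 (1.27, 1.06 to 1.52), and Kif26a at 10.3 FPKM in FA0 and 6.98 FPKM in FA4 (1.47, 1.27 to 1.71). Kif28, in the mESC table only, was at 0.08 FPKM in FA0 and 0.07 FPKM in FA4, and 6 further genes (Kif17, Kif3c, Kifc2, Klc2, Kif27 and Kif7) were also under the minimum. FPKM and count ratios did not always point the same way. Kif13b was slightly higher in FA0 by FPKM (12.7 in FA0 and 11.3 in FA4) and lower by counts (0.635, 0.536 to 0.753), and Kifc3 was lower in FA0 by FPKM (11.5 in FA0 and 13.3 in FA4) and higher by counts (1.33, 1.06 to 1.69); the cause was not tested.

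**Figure D5:**
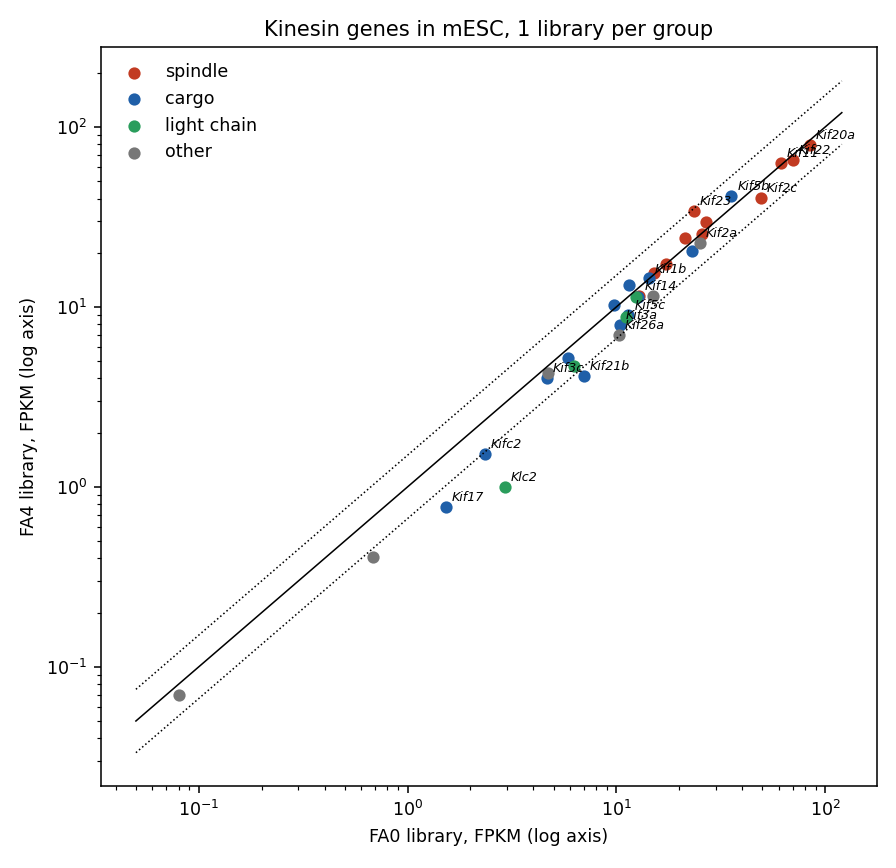
FPKM of the 34 kinesin genes in the FA0 library against the FA4 library, on log axes, coloured by class; the solid line marks equal values and dotted lines a plain FPKM ratio of 1.5 in either direction. Spindle genes fill the upper end on the solid line, and the points past a dotted line are low genes and Kif21b.

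The balance of Kif5c to Kif5b did not overlap between the 3 kinds of sample. Per length, within each library, Kif5c over Kif5b was 0.321 in FA0 and 0.218 in FA4 mESC. It was 1.67, 4.67 and 2.95 in the NTD libraries labelled brain, and 6.59, 7.76 and 6.24 in the control libraries. The NTD libraries also held trophoblast and yolk sac endoderm marker RNA, as given above, and its part in these ratios was not tested. Every NTD ratio lay between the mESC and the control ratios. The 2 tables were made and normalised separately, so the mESC ratios are set beside the brain ratios only as a description.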

How the data were processed

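RNA-seq was analysed from 6 embryonic brain libraries (3 NTD, 3 control) and 2 mESC libraries (FA0, FA4), grouped by their labels. A low input kit was used on RNA depleted of ribosomal RNA, per the labels' protocols. The submitters' processing notes name cutadapt 1.9.3, HISAT2 2.0.4, HTSeq 0.9.1, edgeR and build mm10; annotation and strand are not given in the sources. The brain table deposited by the authors holds whole read counts per protein-coding gene. The mESC table deposited by the authors holds estimated counts and FPKM per gene, listed once for each of 23089 peaks of a second assay, which was not used. In all, 10 further columns of per-sample values in the tables were not used.

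The kinesin genes, their classes and the partner and marker lists were chosen with earlier results of these data known. Brain counts were fitted over the whole table with edgeR 4.0.16, using TMM factors, the filterByExpr filter (11626 genes kept), robust quasi-likelihood fitting without covariates, and Benjamini-Hochberg adjusted p-values. CPM used TMM library sizes; lengths and coordinates are exon unions of GENCODE M21 (GRCm38, which mm10 names). The procedure was tested on simulated data. For mESC, log2 ratios used a pseudocount of 1 FPKM and a minimum mean of 5 FPKM; estimated counts were rounded for exact binomial intervals, and the depth ratio is the median count per FPKM ratio over 2953 genes above 20 FPKM in both libraries.

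Values per library were given for called genes, for Kif5c, Kif1b and Kif3c, and in each class for the 4 tested genes with the largest log2 fold change and the 3 with the highest mean; partner lists by the 3 smallest p; mESC by members past 1.5-fold and the 3 highest of each class. Others given per library were added after their values were seen. In brain these were Kif1a, Kif3a, Kif3b, Kif5b, Kif1c, Kif16b, Kif11 and the marker Ttr. In mESC they were Kif2c, Kif15, Kif23, Kif5c, Kif3c, Kif13b, Kifc3, Klc2, Kif28 and the stem cell markers. Replicate numbers were not used as pairs in the main fit. Deviations from the group means of same-numbered libraries correlated at -0.0214, 0.0929 and 0.031 across genes. Those of differently numbered libraries correlated at -0.0994 to 0.0405. With 3 libraries a group, these values cannot show whether a number stands for a shared litter or batch. Alternatives were DESeq2 1.42.0, limma-voom (limma 3.58.1), other scalings and filters, a replicate block and each library left out. Protein sequences were not used here.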

Additional observations from a re-analysis of the deposited data

How the results depend on the processing

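Kif5c was called lower in NTD under all 14 alternatives. All refit the counts of the comparison on which Kif5c, Kif1b and Kif3c were selected, so kept calls add no support. Kif1b, Klc1 and Kif3c kept their direction under all 14 and their call under 8, 8 and 6 of them. The 4 kinesin genes called lower became 8 with DESeq2, which added Kifc2, Kif1a, Kif9 and Kif5a and called 1, Kif20a, higher in place of 0. They became 1 to 2 when single libraries were left out and 2 without NTD 3 and control 1 together, a setting chosen after seeing the data (Kif5c and Kif5a). Over all genes, 116 lower and 220 higher calls became 427 and 609 with DESeq2, and 17 to 78 lower and 33 to 225 higher calls with single libraries left out. With the replicate block there were 3 kinesin calls (Kif3c was lost) and a cargo median of -1.34. Over all genes the block gave 73 lower and 132 higher calls. Whether same-numbered libraries share more than a number is not given. The cargo median of -1.21 was -1.07 with no filter, -1.31 with library totals, -1.31 with limma-voom, -1.38 without NTD 3 and control 1 together, and -1.44 to -1.10 with single libraries left out. The spindle median of 0.05 was 0.22 without NTD 3 and control 1 together and -0.04 to 0.21 with single libraries left out; library totals gave -0.05, with the median of all genes at -0.11. In mESC the 1 kinesin gene past 1.5-fold became 0 with a pseudocount of 5 or a minimum mean of 10 FPKM, 2 with a minimum of 1 FPKM, and 3 with count ratios in place of FPKM (Kif21b and Kif3a higher, Kif13b lower), a setting added after seeing the data. The cause of these changes was not tested, apart from fewer samples or genes entering a fit. Precision is limited by 3 libraries a group in brain and 1 in mESC.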
